A study of Mus musculus with 2 samples.

Results

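The genes examined here encode the coat of the lipid droplet and the machinery that releases its fat. They are the perilipins Plin2, Plin3, Plin4 and Plin5, the CIDE genes Cidea, Cideb and Cidec, the triglyceride lipase gene Pnpla2, its co-activator gene Abhd5 and its inhibitor gene G0s2. Members were chosen by name, by matching each RefSeq accession of the expression tables to these symbols. Of the 10 listed genes, 9 were matched to a line, out of 26440 genes in all, and Cideb was not analysed here. Of the 9, 8 passed the filter used for comparisons, a level of at least 1 FPKM in either library. FPKM counts fragments normalised for transcript length and for library size, which allows comparison between genes. Between libraries it is not corrected for differences in the makeup of the RNA. The filter left 12477 genes of the series, called the tested genes.

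Liver RNA of BALB/c mice was sequenced at day 11 after birth, when pups suckle a diet rich in milk fat. There was 1 wild-type (WT) library and 1 library from mice labelled SRSF2-/-, which the series describes as a knockout restricted to the liver (the knockout library). The deleted factor, SRSF2, is one of the serine/arginine-rich proteins that take part in messenger RNA splicing. The sources used here do not name the promoter or Cre line that gave the deletion, nor the number and sex of the animals behind each library. Neither genotype was replicated, so no statistical test was made and each difference describes these 2 libraries. Bracketed intervals come from the reads of both libraries (Clopper-Pearson, exact, 95%). They hold counting error alone, because 1 library per genotype gives no spread between animals. Amplified reads need not stem from separate molecules, so even the counting error may be understated.

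A lipid droplet is a core of triglyceride and sterol ester inside a single layer of phospholipid. Perilipins cover that surface and control which lipases reach the core, and CIDE proteins gather where droplets touch and move lipid from the smaller into the larger one. Adipose triglyceride lipase, the product of Pnpla2, takes the first fatty acid off a triglyceride. ABHD5 switches this lipase on and G0S2 blocks it. In hepatocytes PLIN2 is the main coat protein of stored fat, and several of these genes are known targets of the PPAR nuclear receptors, which sense fatty acids.

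The tables held 22407743 reads in the WT and 22111605 reads in the knockout library. Srsf2 itself stood at 27.9 FPKM in the WT and 11.8 FPKM in the knockout library, 0.421 of the WT level (0.388 to 0.457). The ratios of all genes were shifted towards the knockout library, with a median log2 ratio of 0.55, so values are also given relative to that median. The libraries further differed in transcripts that do not belong to hepatocytes or that follow sex. The summed level of 9 skeletal muscle markers was 0.195 FPKM in the WT and 74.6 FPKM in the knockout library, and that of 7 exocrine pancreas markers was 0.612 and 566 FPKM. Xist had 13004 and 6 reads, and the Y-linked gene Ddx3y had 0 and 859 reads. Markers of the labelled tissue were present in both libraries, and Alb, the serum albumin gene, stood at 50399 and 25492 FPKM. All 8 hepatocyte markers passed the filter. In the knockout library 3 were past 2-fold downwards and 1 upwards, against 2.95% and 19.2% of all tested genes. After the median of all genes was set to 0 these were 6 and 1, against 6.66% and 5.67%.

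All 9 matched genes stood higher in the knockout than in the WT library on the deposited scale, as did 84.5% of all tested genes. All but Abhd5 also stood higher relative to the median of all genes. Plin2, Plin3, Cidec and Pnpla2 were at least 2-fold higher on the log2(FPKM + 1) scale, 4 of 8 tested members, and 0 were at least 2-fold lower. Cidec and Plin4 entered the 8 through their level in the knockout library alone. Over all tested genes 19.2% were at least 2-fold higher and 2.95% lower by the same rule. When the median of all genes was set to 0 (centring), Plin2, Cidec and Pnpla2 remained past 2-fold, 3 of 8, against 5.67% of all genes, while 0 members and 6.66% of all genes were lower. With a rule of 1.5-fold 7 members were higher and 0 lower (47.4% and 5.51% of all genes), and with a rule of 4-fold 2 and 0 (2.76% and 0.753%). By plain FPKM ratios whose interval lay wholly beyond 2-fold, 5 members were higher and 0 lower (20.9% and 2.81%), Plin4 being the one added. The median log2 ratio of the 8 members was 1.15, or 0.59 relative to all genes, and single values ran from 0.54 for Abhd5 to 4.54 for Cidec. The pseudocount of 1 understates the change of low genes, and it held Plin4 (log2 ratio 0.97) and Plin5 (0.93) just under the 2-fold line.

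**Figure D1:**
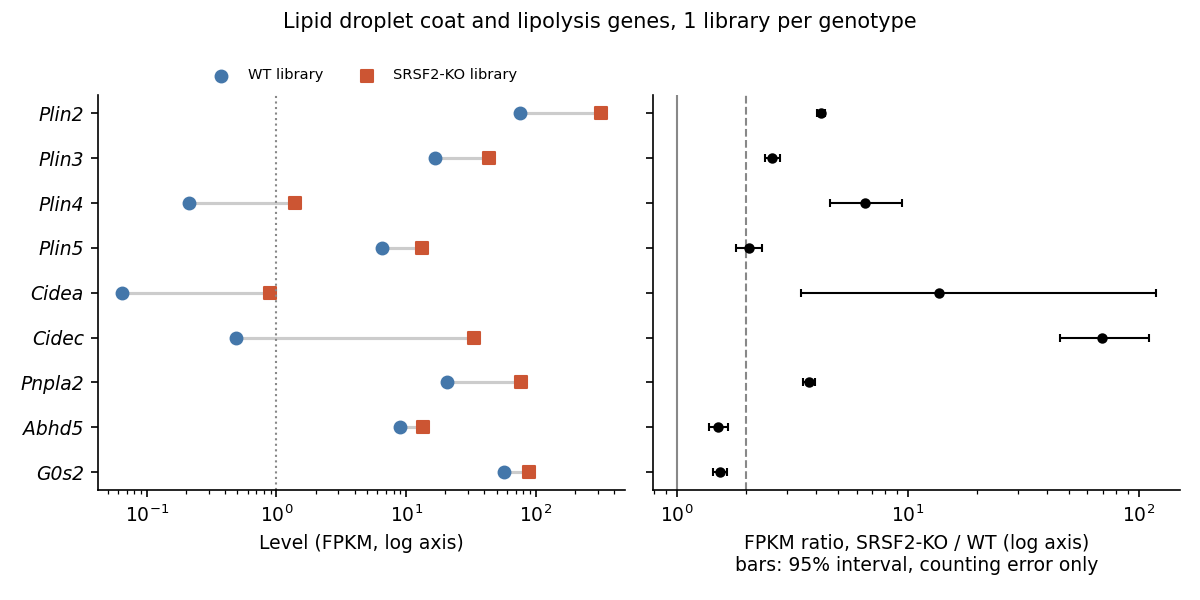
Levels of the 9 matched genes in the WT (circles) and knockout (squares) library on a log FPKM axis, with the 1 FPKM filter dotted, and the knockout to WT ratio of each with its 95% counting interval on a log axis, with a ratio of 2 dashed. On this deposited scale every gene lies higher in the knockout library (Abhd5 not once centred on all genes), as do 84.5% of all tested genes. The ratios run from 1.51 for Abhd5 to 69.1 for Cidec.

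The members lay at different places in the distribution of all genes. Cidec had the 24th highest log2 ratio of 12477 tested genes. For Plin2 97.4% of tested genes had a lower ratio, for Pnpla2 96.5% and for Plin3 91.1%. Plin4 and Plin5 lay at 79.7% and 77.4%. G0s2 and Abhd5, at 55.3% and 49.3%, sat in the middle of the distribution.

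**Figure D2:**
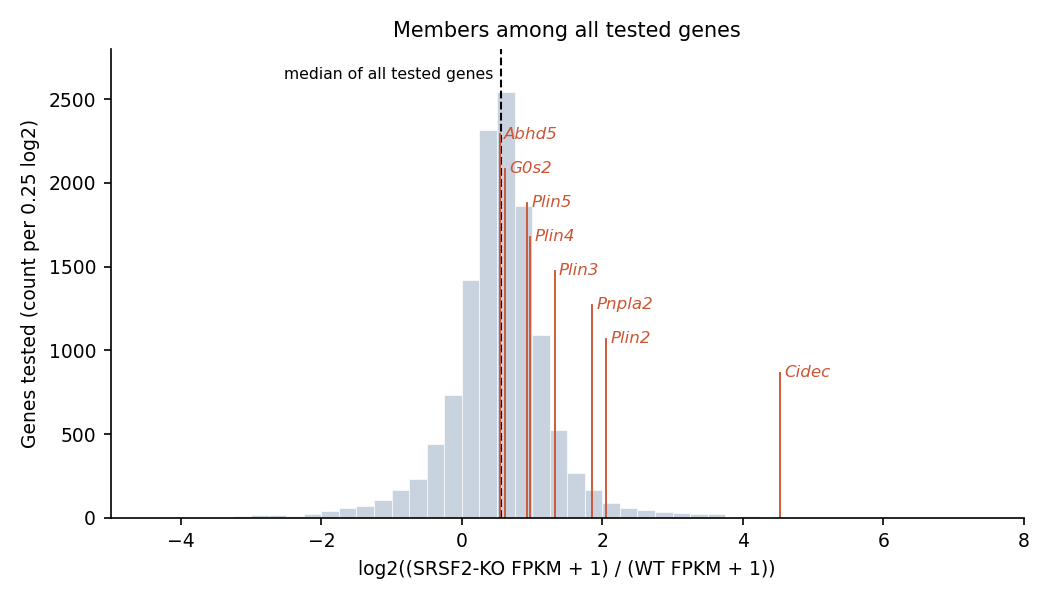
Histogram of the log2 ratio, knockout over WT, of the 12477 tested genes in bins of 0.25, with the median of 0.55 dashed and the 8 tested members as vertical lines whose heights carry no value. Abhd5 (0.54) and G0s2 (0.62) lie at the median, and Cidec (4.54) lies far in the upper tail.

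Among the coat proteins, Plin2 was the most abundant in both libraries. This gene, known earlier as Adrp or Adfp, encodes the coat that covers droplets in most cells that are not adipocytes, and the protein is degraded when it is not bound to lipid. Plin2 had 3806 reads (76.0 FPKM) in the WT and 15825 reads (319.9 FPKM) in the knockout library, 4.21-fold more (4.06 to 4.36). It was already above 95.3% of the tested genes in level in the WT library and above 98.5% in the knockout library. Its log2 ratio of 2.06 was 1.51 relative to all genes.

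Plin3 encodes a widely expressed perilipin that moves from the cytosol onto young droplets. It had 955 and 2445 reads, or 16.7 and 43.2 FPKM, 2.59-fold higher in the knockout library (2.40 to 2.80). Relative to all genes its log2 ratio was 0.77, under the 2-fold line. Plin5 encodes the perilipin of oxidative tissues such as heart, muscle and liver, where it ties droplets to mitochondria. It had 344 and 697 reads, or 6.49 and 13.3 FPKM, 2.05-fold higher (1.80 to 2.34), and 0.38 on the log2 scale relative to all genes.

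Plin4, a perilipin best known from white adipose tissue and muscle, was the rarest of Plin2 to Plin5. It had 37 reads (0.212 FPKM) in the WT and 238 reads (1.38 FPKM) in the knockout library, 6.51-fold more (4.59 to 9.47). Plin4 and Plin5 are neighbours on chromosome 17 in the RefSeq annotation of GRCm38.p6, and the locus of Plin4 overlaps that of Hdgfl2, at 9.68 and 17.5 FPKM. The sources used here do not say whether strand was used in counting, and reads in the overlap cannot be assigned with certainty.

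The summed level of the 4 perilipins went from 99.4 FPKM in the WT to 377.8 FPKM in the knockout library, a ratio of 3.80. Shares within that sum do not depend on how the libraries were scaled. Plin2 made up 76.5% of it in the WT and 84.7% in the knockout library, a gain of 8.20 percentage points. Plin3 made up 16.8% and 11.4%, and Plin5 6.53% and 3.52%. Plin4 stayed under 1% in both, at 0.213% and 0.365%. Per unit of Plin2, Plin5 in the knockout library was at 0.487 of its WT value (0.426 to 0.559) and Plin3 at 0.616 (0.566 to 0.670).

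Cidec showed the widest difference of the 9 genes. It encodes the droplet fusion protein of white fat, known also as Fsp27, which is scarce in normal liver and abundant in fatty liver. Cidec had 22 reads (0.484 FPKM) in the WT and 1502 reads (33.4 FPKM) in the knockout library, 69.1-fold more (45.5 to 110.6). In the WT library it was above 5.53% of the tested genes in level, and in the knockout library above 86.6%. Per unit of Plin2 it was 16.4-fold higher in the knockout library (10.8 to 26.3), from 0.00636 to 0.104 FPKM of Cidec per FPKM of Plin2. Its log2 ratio, as for any gene near 0 in a library, depended on the pseudocount, from 2.81 with a pseudocount of 5 to 5.84 with 0.1.

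Cidea, the CIDE gene of brown fat, which also appears in steatotic liver, was near the limit of detection. It had 2 reads (0.0648 FPKM) in the WT and 27 reads (0.885 FPKM) in the knockout library. The ratio of 13.7 carries an interval of 3.43 to 118.6, and Cidea did not reach 1 FPKM in either library, so it was left out of the counts above. Both CIDE genes measured were thus higher in the knockout library beyond counting error, at levels that differed 37.8-fold between Cidec and Cidea in that library.

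The 250 bases before the start of the genes are shown for Cidec, Plin2 and Pnpla2, the members past 2-fold after centring, and for G0s2, which lay at the median of all genes. The sequences are from RefSeq on GRCm38.p6, which is the C57BL/6J genome and not that of BALB/c, and for Cidec the first of 2 listed starts is used. Capitals mark a match on either strand to AGGTCA, the core bound by nuclear receptors, CCAAT, the CCAAT box, or GGGCGG, the GC box, none of which overlap here.
Cidec, chr6:113435761-113436010, minus strand: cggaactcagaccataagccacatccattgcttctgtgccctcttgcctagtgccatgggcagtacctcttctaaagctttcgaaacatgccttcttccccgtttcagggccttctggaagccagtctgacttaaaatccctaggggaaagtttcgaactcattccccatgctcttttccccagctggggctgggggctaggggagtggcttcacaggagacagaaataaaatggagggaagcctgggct
Plin2, chr4:86670060-86670309, minus strand: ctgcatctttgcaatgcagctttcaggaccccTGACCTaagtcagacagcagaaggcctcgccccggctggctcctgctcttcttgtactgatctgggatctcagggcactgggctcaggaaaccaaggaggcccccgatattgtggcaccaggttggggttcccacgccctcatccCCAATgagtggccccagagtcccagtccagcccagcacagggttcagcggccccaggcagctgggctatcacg
Pnpla2, chr7:141454938-141455187, plus strand: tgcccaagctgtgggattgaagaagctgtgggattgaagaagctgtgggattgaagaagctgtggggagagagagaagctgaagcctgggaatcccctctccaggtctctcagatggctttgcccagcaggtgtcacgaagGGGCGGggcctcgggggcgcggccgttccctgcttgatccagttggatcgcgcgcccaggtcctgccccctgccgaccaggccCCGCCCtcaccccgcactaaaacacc
G0s2, chr1:193273189-193273438, minus strand: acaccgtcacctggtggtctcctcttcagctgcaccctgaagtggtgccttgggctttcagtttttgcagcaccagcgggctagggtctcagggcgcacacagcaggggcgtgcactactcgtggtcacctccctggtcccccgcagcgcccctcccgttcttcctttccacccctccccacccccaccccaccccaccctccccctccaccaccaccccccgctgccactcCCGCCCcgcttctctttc

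The Plin2 window held 1 AGGTCA match (as TGACCT, 218 bases before the start) and 1 CCAAT box 73 bases before it. The Pnpla2 window held 2 GC boxes, 109 and 26 bases before the start, and the G0s2 window held 1, 18 bases before it. The Cidec windows held none of these motifs at either start. Among 32851 windows of the same length, 14.0% held AGGTCA, 33.8% CCAAT and 32.7% GGGCGG. Of the 10 windows of 8 member genes (all matched members but Cidea), 3 held AGGTCA, 4 CCAAT and 6 GGGCGG. Besides Plin2, AGGTCA was in a window of Abhd5, which lay at the median of all genes, and of Plin5. These matches were 69 and 170 bases before the start. The pair AGGTCANAGGTCA, the direct repeat with 1 spacer base bound by PPAR and its partner RXR, was in 0 of the 10 windows and in 0.0335% of all windows. These matches describe letters in short windows, were searched with motifs chosen after the promoters had been seen, and say nothing of factor binding, which was not measured.

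The lipase gene Pnpla2 was higher in the knockout library by more than its co-activator Abhd5 and its inhibitor G0s2. This does not hold for Hilpda, which encodes another inhibitor of the lipase and is not a member. Hilpda stood at 2.87 and 34.3 FPKM, 11.9-fold higher. Pnpla2 had 1476 reads (20.5 FPKM) in the WT and 5451 reads (76.5 FPKM) in the knockout library, 3.74-fold more (3.53 to 3.96). Its log2 ratio of 1.85 was 1.30 relative to all genes. G0s2, the small inhibitor that binds the catalytic part of the lipase, had 1275 and 1942 reads, or 57.0 and 87.9 FPKM, 1.54-fold higher (1.44 to 1.66). Abhd5, known also as CGI-58, had 745 and 1111 reads, or 8.92 and 13.5 FPKM, 1.51-fold higher (1.37 to 1.66). Relative to all genes the log2 ratio of G0s2 was 0.06 and that of Abhd5 was -0.01, so the direction of Abhd5 turned with the scaling.

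Ratios within a library show the change in balance between Pnpla2 and G0s2, Abhd5 or Plin2 without any scaling. They leave out Hilpda. There were 2.78 FPKM of G0s2 for each FPKM of Pnpla2 in the WT library and 1.15 in the knockout library, 0.412 of the WT value (0.376 to 0.452). For Abhd5 the ratio to Pnpla2 was 0.436 and 0.176, or 0.404 of the WT value (0.362 to 0.451). The transcripts of G0s2 and Abhd5 kept nearly the same proportion to each other, with 6.39 and 6.53 FPKM of G0s2 per FPKM of Abhd5. That change of 1.02 has an interval of 0.907 to 1.15, which includes 1. The lipase changed less against the coat, with 0.269 and 0.239 FPKM of Pnpla2 per FPKM of Plin2, or 0.888 of the WT value (0.830 to 0.951).

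**Figure D3:**
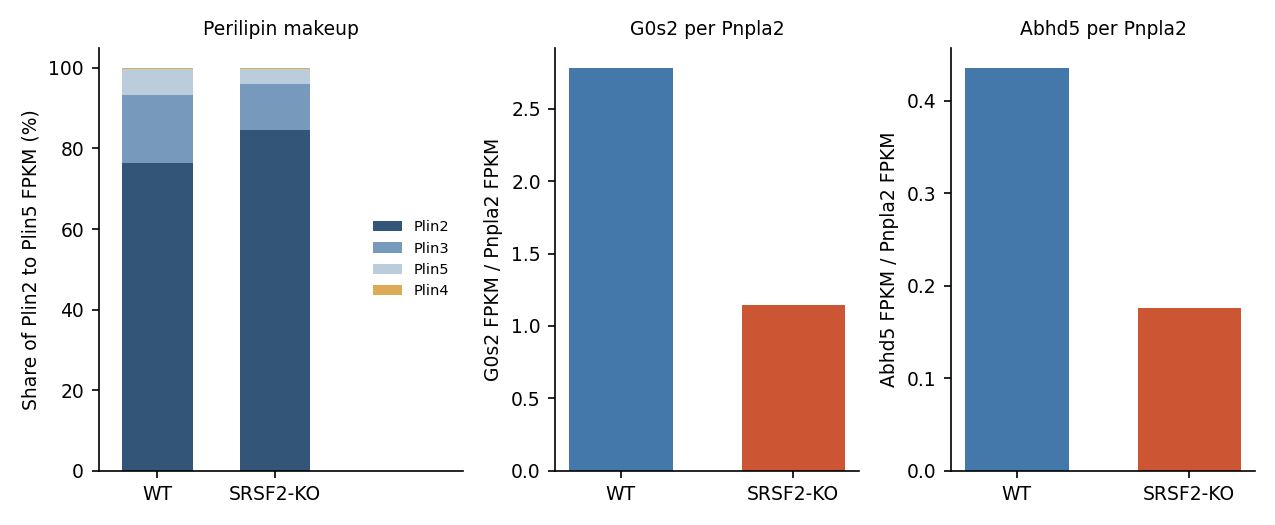
Stacked bars give the share of each perilipin in the summed FPKM of Plin2 to Plin5, and the other bars give FPKM of G0s2 and of Abhd5 per FPKM of Pnpla2, for the WT and the knockout library (1 library each, no error bars). Plin2 fills 76.5% and 84.7% of the perilipin sum, and G0s2 per Pnpla2 is 2.78 in the WT and 1.15 in the knockout library.

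Other genes of the droplet pathway were counted by the same 2-fold rule. Over all tested genes 19.2% passed upwards and 2.95% downwards (5.67% and 6.66% after centring), shares that stand beside each list count below. Of 15 tested droplet proteins outside the members, 4 passed 2-fold upwards and 1 downwards (2 and 1 after centring), and their median log2 ratio was 0.40 as deposited and -0.15 against the median of all genes. Hilpda, a small droplet protein that inhibits the same lipase as G0s2, stood at 2.87 and 34.3 FPKM, 11.9-fold higher (9.43 to 15.3). Hsd17b13, a hepatocyte droplet enzyme, stood at 97.1 and 413.6 FPKM, 4.26-fold higher (4.12 to 4.40). Fitm1, which helps to package triglyceride into droplets and is best known from muscle, was lower at 6.08 and 0.920 FPKM, 6.60-fold lower (4.20 to 10.9). Plin1, the perilipin of adipocytes, had 0 reads in the WT and 49 in the knockout library (0.976 FPKM), and the exact lower limit of its ratio was 12.9. It did not reach 1 FPKM and was named after its values were seen.

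Other neutral lipid hydrolases lay on both sides. Past 2-fold were 3 of 9 tested genes upwards and 2 downwards, against 19.2% and 2.95% of all tested genes. After centring these were 0 and 2, against 5.67% and 6.66%. The median was 0.68 (0.13 against all genes). Aadac, a lipase-like enzyme of the hepatocyte endoplasmic reticulum, stood at 217.9 and 69.8 FPKM, 3.12-fold lower (2.98 to 3.27). Ces1d, a carboxylesterase that hydrolyses stored triglyceride, stood at 85.2 and 31.2 FPKM, 2.73-fold lower (2.58 to 2.89). Reads shared with its near-identical relatives may be divided in an unknown way. In the same family Ces1f, at 0.386 and 2.19 FPKM, and Ces1g, at 6.26 and 16.7 FPKM, were higher. Ces1f passed the filter through its level in the knockout library alone. Ces1f and Ces1g were named after their values were seen. Ddhd2, a phospholipase that also acts on triglyceride, stood at 1.58 and 5.46 FPKM. Lipe, the hormone-sensitive lipase that acts after Pnpla2, stood at 2.32 and 3.62 FPKM, and Mgll, which releases the last fatty acid, at 29.6 and 21.7 FPKM. The last of these is opposite in direction to Pnpla2. Lipe and Mgll were named after their values were seen, as the enzymes that follow Pnpla2 in the pathway.

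Genes of triglyceride and sterol ester synthesis fill the droplet. Of 13 tested, 4 passed 2-fold upwards and 0 downwards (1 and 1 after centring). The shares of all tested genes were 19.2% and 2.95% (5.67% and 6.66% after centring). The median of the 13 was 0.66 (0.10 against all genes). Lpin2, a phosphatidate phosphatase, was 3.89-fold higher (3.70 to 4.09) at 11.9 and 46.3 FPKM, and Gpam, the mitochondrial acyltransferase of the first step, at 7.37 and 22.3 FPKM. Soat1, a sterol acyltransferase of macrophages and other cells, stood at 2.35 and 6.35 FPKM. Dgat2, the abundant enzyme of the last step, stood at 160.9 and 114.95 FPKM, 1.40-fold lower (1.36 to 1.44). Genes that export fat in very low density lipoprotein had a median of 0.21 (-0.34 against all genes), and 1 of 8 passed 2-fold upwards and 0 downwards (0 and 2 after centring). Mttp, which loads lipid onto apolipoprotein B, stood at 51.7 and 116.3 FPKM. Sar1b, a coat component of the vesicles that carry lipoproteins, stood at 52.6 and 103.7 FPKM, and the apolipoprotein gene Apoc3 at 860 and 519 FPKM.

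Of 16 PPAR-alpha target genes of fatty acid use, 7 passed 2-fold upwards and 0 downwards (5 and 0 after centring). All tested genes had shares of 19.2% and 2.95% (5.67% and 6.66% after centring). The median of the 16 was 0.79 (0.23 against all genes). Acot1, an acyl-CoA thioesterase with a near-identical relative, stood at 2.06 and 30.4 FPKM. The peroxisomal oxidation gene Ehhadh was 8.59-fold higher. Angptl4, which encodes an inhibitor of lipoprotein lipase, was 8.69-fold higher, while Fabp1, the abundant fatty acid binding protein, stood at 892 and 1304 FPKM. The regulators themselves had a median of 0.15 (-0.40 against all genes), and 1 of 10 passed 2-fold upwards and 1 downwards (0 and 3 after centring). Pparg, the PPAR of fat storage, was the higher one at 6.10 and 13.7 FPKM, 2.24-fold (1.97 to 2.56). Srebf1, a regulator of fatty acid synthesis, was the lower one at 46.7 and 17.6 FPKM, 2.65-fold (2.52 to 2.79). Ppara stood at 42.2 and 26.9 FPKM, and Creb3l3, a liver transcription factor known to act on Cidec, at 91.95 and 119.4 FPKM. Nr1h3, the oxysterol receptor LXR-alpha, stood at 28.96 and 50.7 FPKM. Ppara was named after its values were seen.

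**Figure D4:**
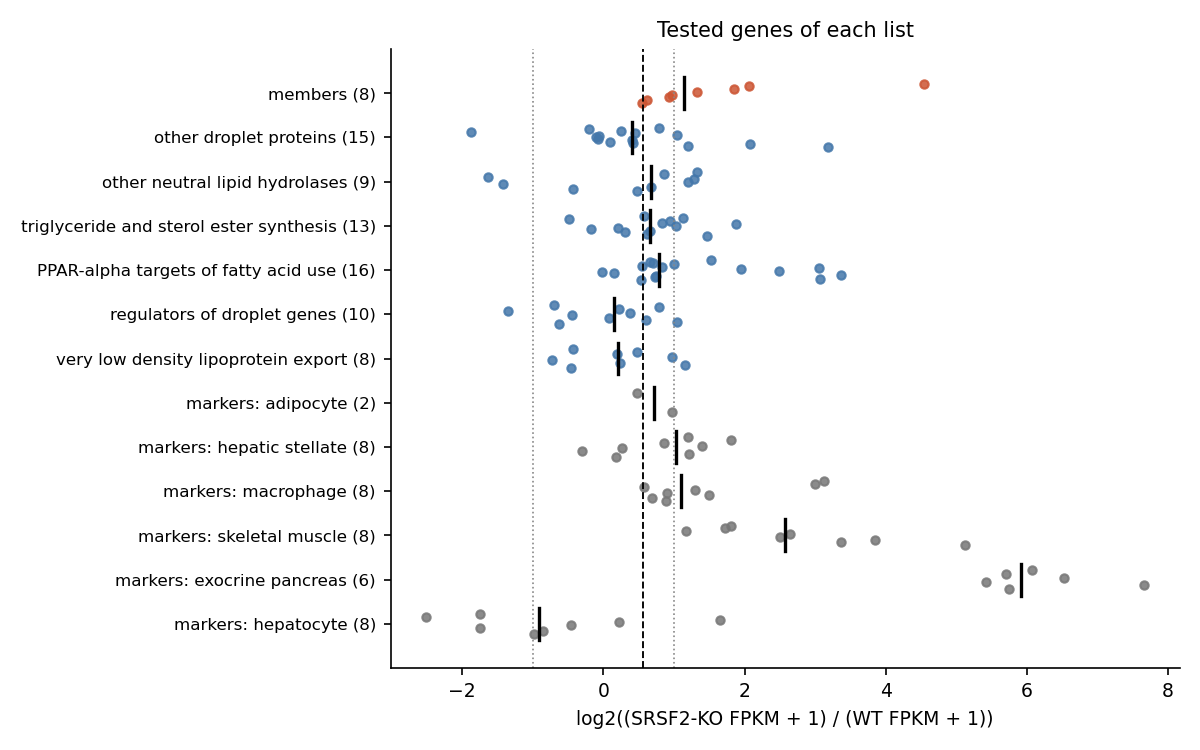
Log2 ratio, knockout over WT, of each tested gene (points) in the members, the pathway lists and the cell type marker lists, with the number tested in brackets, the list median as a bar, the median of all genes (0.55) dashed and 2-fold dotted; vertical spread within a row carries no value. The members reach from 0.54 to 4.54 with a median of 1.15, and the lists of droplet regulators and lipoprotein export have medians of 0.15 and 0.21.

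Adipocytes, macrophages, stellate cells and muscle fibres also make droplet proteins. In bulk tissue a change in the number of such cells and a change in RNA per cell cannot be told apart. Of the 8 adipocyte genes, 5 were at or near 0 in both libraries: Adipoq, the adiponectin gene, had 0 and 4 reads, Lep 0 and 1, Retn 0 and 0, Ucp1 0 and 1, and Cfd 1 and 5. The other 3 were higher in the knockout library, Plin1 with 0 and 49 reads, Lipe with 229 and 353 and Fabp4 with 875 and 1705. The summed level of the 8 adipocyte genes was 53.7 FPKM in the WT and 106.3 FPKM in the knockout library, of which Fabp4, made also by endothelial cells and macrophages, gave 51.4 and 101.3 FPKM. Of 8 measured macrophage markers, 4 passed 2-fold upwards and 0 downwards (2 and 0 after centring), where 19.2% and 5.67% of all genes passed upwards before and after centring. Their summed level was 177.7 and 424.4 FPKM. Among markers of lipid-laden macrophages, Gpnmb stood at 0.278 and 10.1 FPKM, and Trem2 at 0.230 and 8.82 FPKM. Gpnmb and Trem2 passed the filter through their level in the knockout library alone. They are the 2 macrophage markers left after centring and are among the 4 before it, so the filter favoured both counts. Of 8 stellate cell markers 4 passed 2-fold upwards and 0 downwards (1 and 0 after centring), with summed levels of 158.4 and 378.5 FPKM, while Lrat, which makes the retinyl esters stored in stellate droplets, stood at 3.85 and 4.49 FPKM. No macrophage or stellate marker measured was at 0 reads in either library. Of 9 skeletal muscle markers, 8 passed the filter, each through its level in the knockout library alone. All 8 were at least 2-fold higher (7 after centring). For genes near 0 in the WT library the filter and the pseudocount nearly fix that outcome, so the count adds no information. Of the 9, 5 were at 0 reads in the WT library. The part of these cells in the values of the members was not tested. Xist and the Y-linked transcripts split in the same way as genotype. With 1 library per genotype, a difference that follows sex and one that follows genotype cannot be told apart for any member.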

How the data were processed

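Liver RNA was measured in 1 WT and 1 SRSF2-/- library, told apart by the labelled genotype. Per the submitters' processing notes, Bowtie 0.12.2 and the build mm9 were used. The sources used here do not say which counting program, annotation or strand setting was applied, nor how reads with several matches were treated. Per the file headers, the authors deposited for every RefSeq accession a count of whole reads and a level in FPKM. Accessions were given symbols (23419 of 26449) through RefSeq (GRCm38.p6) and GENCODE tables, and values were summed per gene.

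Differences were log2((knockout FPKM + 1) / (WT FPKM + 1)) for genes reaching 1 FPKM in a library, described by a 2-fold rule. Printed folds are FPKM ratios without a pseudocount, and their read intervals were scaled by 1.012, the ratio of FPKM per read between the tables. Ratios of 2 genes within a library carry exact conditional odds ratio intervals. With 1 library per group no count test was made and no p-value computed. All members are named, and from each pathway list the 3 genes with the widest log2 ratio and the one with the highest level. Others were named after their values were seen. Marker lists are given by counts, sums and defining genes. Members and lists were chosen with earlier results of these data known. The markers Cd68 and Csf1r found no line and are not analysed here. The computation was tested on simulated libraries (Python 3.11.15; numpy 2.4.6; pandas 2.3.3; scipy 1.17.1; matplotlib 3.10.9). These held counting error alone, no shift of all genes, and changes only in well-expressed genes. The simulation therefore checks the arithmetic and gives no support to single differences reported here.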

Additional observations from a re-analysis of the deposited data

How the results depend on the processing

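No paired analysis was possible because each genotype has 1 library and no test was made. The count of members at least 2-fold higher, 4, was 7 with a rule of 1.5-fold (47.4% of all genes) and 2 with 4-fold (2.76%). It ran from 3 to 6 under the other alternatives. With a pseudocount of 0.1 it was 6 of 8, where 3797 of 12477 genes were higher. On the TPM scale it was 6 of 9, with Cidea past the filter, where 3628 of 14342 genes were higher. Without the 20 most abundant genes it was 3 of 8, where 1208 of 12087 genes were higher. By the counting interval of the plain ratio, an alternative added after the data had been seen, 5 of 8 members lay beyond 2-fold (20.9% of all genes). The count of members at least 2-fold lower was 0 under each of these alternatives. The median log2 ratio of the members, 1.15, was 1.63 with a pseudocount of 0.1, 0.91 with 5, 0.97 with no filter, 1.42 on the TPM scale, 0.59 after centring and 0.89 without the 20 most abundant genes. These alternatives change the scale, the pseudocount or the genes entered by construction. No single member past 2-fold changed sign. None could, since their log2 ratios were 1.32 or more and centring, the largest shift of scale, took off 0.55. Each member has 1 accession, and transcript length cancels in the change of a ratio of 2 genes, so the alternatives on accession and length could not move the ratios to Pnpla2 and are no check of them. The gain in the share of Plin2, 8.20 percentage points, was 8.38 from reads without length. Depth limits Cidea (2 WT reads), Cidec (22) and Plin4 (37).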

Other observations

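The genes beside the members on the chromosome, in the order of the RefSeq annotation of GRCm38.p6, gave further values that were chosen after the data had been seen. Cidec lies between Rpusd3, a pseudouridine synthase gene, and Jagn1, which encodes a membrane protein of the endoplasmic reticulum. Rpusd3 stood at 5.29 and 6.20 FPKM and Jagn1 at 12.1 and 22.2 FPKM in the WT and knockout library, where Cidec stood at 0.484 and 33.4 FPKM. Plin2 lies between Haus6 and Dennd4c, at 0.533 and 1.73 FPKM and at 4.68 and 10.5 FPKM. Pnpla2 lies beside the ribosomal protein gene Rplp2, at 192.1 and 323.4 FPKM.

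G0s2 lies next to Hsd11b1, the gene of the enzyme that regenerates active glucocorticoid. Hsd11b1 went from 187.5 FPKM in the WT to 7.91 FPKM in the knockout library, a 23.7-fold lower level (21.1 to 26.8), while G0s2 stood at 57.0 and 87.9 FPKM. Lamb3, the neighbour on the other side, stood at 0.558 and 1.09 FPKM. Plin5 lies next to Lrg1, which encodes a plasma glycoprotein and stood at 537.6 and 281.7 FPKM, lower in the knockout library where Plin5 was higher.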
